A study of Mus musculus with 91 samples.

Results

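Nr4a1, Nr4a2 and Nr4a3, the genes of the NR4A orphan nuclear receptors, were followed over the day together with the early response genes Dusp1 and Btg2 in D1 and D2 neurons of the mouse nucleus accumbens. The genes were chosen by name as a list of 6 Ensembl identifiers, and 5 of them were found among the 14355 identifiers of the deposited count table. Ier2, the other gene on the list, was not analysed here. The 5 are ENSMUSG00000023034 (Nr4a1), ENSMUSG00000026826 (Nr4a2), ENSMUSG00000028341 (Nr4a3), ENSMUSG00000024190 (Dusp1) and ENSMUSG00000020423 (Btg2). The list was set by gene name, but with earlier results of these data known, and all 5 entered each test.

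The study asked how gene expression follows the time of day in these neurons of both sexes. D1 samples came from Drd1-Cre mice, with 22 libraries from males and 23 from females, and D2 samples came from A2a-Cre mice, with 23 libraries from each sex. Every mouse also carried RiboTag, a ribosomal protein (Rpl22) that gains a hemagglutinin tag in cells with Cre, so that ribosome-bound mRNA could be pulled down with an antibody. All animals were over 10 weeks old, lived in 12 h of light and 12 h of dark, and had no treatment named in the labels; tissue of 2 mice was pooled per library. Samples were taken at zeitgeber time (ZT, hours after lights on) 2, 6, 10, 14, 18 and 22, which gives 24 groups of 3 or 4 libraries and 91 libraries in all. Because each cell type was marked by a Cre line of its own, line and cell type cannot be told apart.

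Early response genes are transcribed within minutes of a stimulus, without new protein synthesis, and their transcripts are short-lived. In neurons, calcium and cAMP signals reach them through kinases and CREB, a factor that binds the cAMP response element. The NR4A proteins bind DNA as monomers or dimers and act without a known classical ligand. Nr4a1 (Nur77) is known in the striatum as a gene that responds to dopamine receptor drugs. Nr4a2 (Nurr1) is best known as a factor that midbrain dopamine neurons need, and Nr4a3 is also called Nor1. Dusp1 encodes a phosphatase that inactivates MAP kinases, and Btg2 an antiproliferative protein that binds the mRNA deadenylation machinery.

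Windows before a start of transcription of these genes are shown because the cAMP response element is their best known shared feature. Whether it bears on their levels here was not tested. The sequences are those of RefSeq on GRCm38.p6, matched by symbol, and run 250 bases up to the base before 1 start of transcription per gene. For Nr4a2, Dusp1 and Btg2 that start is the 5′ end of the annotated gene. For Nr4a1 it lies 12944 bases inside the annotated gene, and for Nr4a3 227 bases inside it. They are written in the direction of the gene, with each TGACG, the core of the cAMP response element, in capitals on either strand (CGTCA on the opposite strand). Nr4a1 lies on the plus strand at chr15:101266596-101266845, Nr4a2 on the minus strand at chr2:57124004-57124253, Dusp1 on the minus strand at chr17:26508473-26508722 and Btg2 on the minus strand at chr1:134079156-134079405. For Nr4a3 (plus strand) only 30 bases are given, chr4:48045087-48045116, which lie just past the first annotated base of the gene and hold 2 close matches.
Nr4a1: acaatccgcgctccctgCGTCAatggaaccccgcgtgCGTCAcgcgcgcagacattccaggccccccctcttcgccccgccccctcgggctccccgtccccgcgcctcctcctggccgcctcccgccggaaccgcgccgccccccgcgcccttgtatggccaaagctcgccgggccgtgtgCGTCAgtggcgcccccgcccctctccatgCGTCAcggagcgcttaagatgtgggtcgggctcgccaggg
Nr4a2: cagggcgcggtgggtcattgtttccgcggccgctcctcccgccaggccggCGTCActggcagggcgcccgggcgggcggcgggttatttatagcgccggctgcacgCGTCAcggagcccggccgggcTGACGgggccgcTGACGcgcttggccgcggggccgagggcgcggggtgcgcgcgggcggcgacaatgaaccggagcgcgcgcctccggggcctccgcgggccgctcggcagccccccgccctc
Nr4a3: catgtCGTCAcatTGACGtctcgcattcca
Dusp1: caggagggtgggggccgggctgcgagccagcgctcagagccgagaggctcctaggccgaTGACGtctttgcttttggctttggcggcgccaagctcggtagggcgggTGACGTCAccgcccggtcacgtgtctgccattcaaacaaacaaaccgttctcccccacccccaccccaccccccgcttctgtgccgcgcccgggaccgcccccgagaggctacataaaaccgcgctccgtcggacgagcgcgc
Btg2: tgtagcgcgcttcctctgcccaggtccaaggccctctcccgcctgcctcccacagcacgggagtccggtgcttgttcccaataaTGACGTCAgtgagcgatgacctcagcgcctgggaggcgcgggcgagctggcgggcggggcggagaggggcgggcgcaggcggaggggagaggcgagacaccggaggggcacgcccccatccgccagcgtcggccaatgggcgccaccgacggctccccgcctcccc

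The whole palindromic element, TGACGTCA, was present in Dusp1, 143 bases before the start of transcription, and in Btg2, 166 bases before it. It occurred in 1.55% of 32851 promoter windows of 250 bases. TGACG, searched on both strands, matched 4 times each in Nr4a1, Nr4a2 and Nr4a3, 3 times in Dusp1 and 2 times in Btg2, where each whole element counts as 2 overlapping matches. At least 1 match was present in 17.8% of the windows, at least 2 in 3.9%, at least 3 in 0.688% and at least 4 in 0.137%. The stretch printed for Nr4a3 holds 2 of its matches, on opposite strands. Of the 4 matches of Nr4a3, 1 begins before the first annotated base of the gene, and the 4 of Nr4a1 all lie inside the annotated gene. The CArG box bound by SRF was searched only in its strict form of CC, a run of A or T, and GG. That form was found in 1.47% of windows and matched in 0 of the 5 windows. Sites that depart from it were not counted, so SRF sites may have been missed. CACGTG, the E-box bound by clock factors, was present in Dusp1 and in 6.02% of windows. TATAAA, also searched on both strands, was present in 12.4% of windows. Nr4a2 held it on the opposite strand only (TTTATA in the direction of the gene). These matches describe the letters and do not show binding.

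Library totals ranged from 8556069 to 19297403 counts in D1 and from 6872165 to 24665262 counts in D2. Levels are given as CPM, counts scaled to the TMM-adjusted total of each library, and are not divided by transcript length, so they are compared between samples and not between genes. 3 D1 libraries from males (ZT10 B, ZT22 B and ZT18 D) stood apart, with 789, 722 and 205 genes at 0, and the rhythm of each gene in D1 is given with and without them. The letter that names each replicate marked a shared deviation in D2, where 85.6% of genes differed between letters, and less regularly in D1, where 52.5% did. In D2, Nr4a1 (adjusted p = 0.00144) and Dusp1 (adjusted p = 0.000306) differed between letters, and D2 results are also given with the letter as a block where that changes a call. Cell type markers could not be checked, because neither the count table nor the reference pairs Ensembl identifiers with symbols. In pulled-down RNA, fewer tagged cells and less RNA per cell cannot be told apart.

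Nr4a1 and Nr4a3 followed the time of day in both cell types, with about 2-fold swings in D1, the lowest levels at ZT6 and fitted peaks in the dark. Dusp1 did so in D2, with a peak near that of both receptors. Nr4a2 passed the rhythm test in neither cell type. A rhythm here is a fitted 24 h cosine, whose amplitude is the log2 distance between its mean and its peak, tested with edgeR and called at an adjusted p under 0.05. By this test 2 of the 5 genes were rhythmic in D1, where 0.495% of all genes were, and 3 of 5 in D2, where 2.94% were. Without the 3 libraries that stood apart, 4 of 5 were rhythmic in D1 (1.23% of all genes). When letters entered as a block, 4 of 5 were rhythmic in D2 (22.3% of genes).

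**Figure D1:**
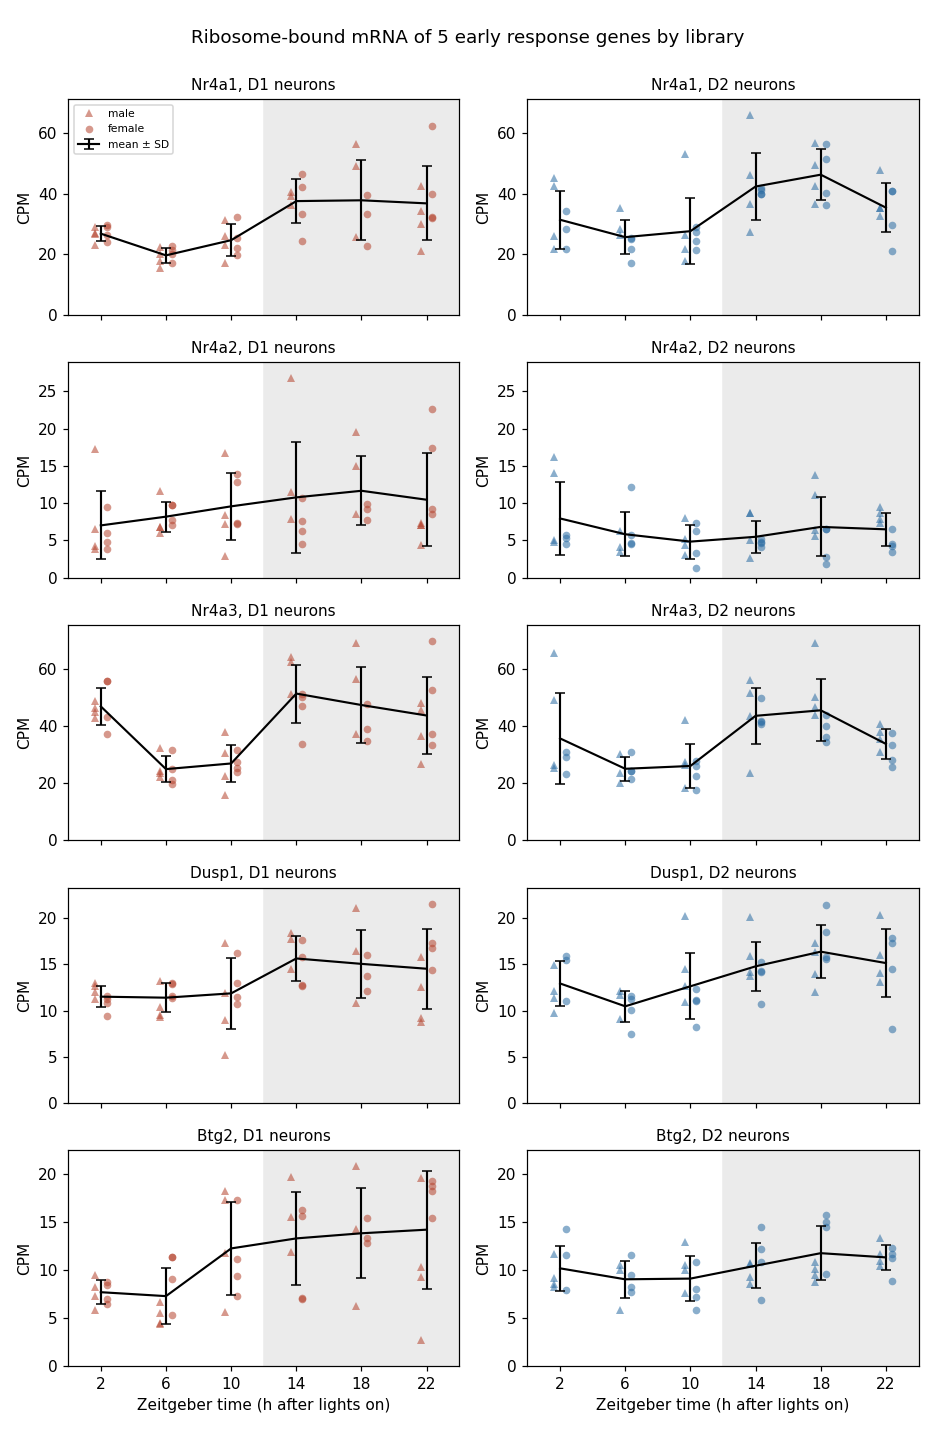
CPM of each gene (rows) by zeitgeber time in hours, in D1 neurons (left) and D2 neurons (right); triangles are libraries from males, circles from females, black lines the mean ± SD over both sexes, and grey the dark phase. Nr4a1 and Nr4a3 are lowest at ZT6 in both cell types, while single high libraries stand out for Nr4a2.

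Nr4a1 in D1 neurons averaged 26.8 ± 2.40 CPM at ZT2, 19.6 ± 2.59 at ZT6, 24.6 ± 5.24 at ZT10, 37.5 ± 7.20 at ZT14, 37.8 ± 13.2 at ZT18 and 36.8 ± 12.2 at ZT22 (SD, n = 8, 8, 8, 7, 6 and 8). The lowest, median and highest libraries were 22.8, 36.3 and 56.3 CPM at ZT18, against 15.5, 20.1 and 22.7 CPM at ZT6. Libraries of ZT2, ZT14 and ZT18 all lay above those of ZT6, by a narrow margin at ZT2 (lowest 22.9) and ZT18. Every pair of times was compared, for this gene and those below. How many of all genes have a pair of times without overlap was not counted. The means of ZT14, ZT18 and ZT22 differed by far less than their SD, and each neighbour in the order of the 6 means overlapped the next. The amplitude was 0.51 ± 0.07 (SE), a 2.02-fold swing between trough and peak, with a peak at ZT 18.2 ± 0.5 h (SE) and an adjusted p of 0.000165, the 5th lowest p of all genes. Leaving out any letter kept the call, with adjusted p between 0.000159 and 0.0127. Without the 3 libraries that stood apart the amplitude was 0.56, with an adjusted p of 5.58e-06.

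In D2 neurons Nr4a1 averaged 31.4 ± 9.54 CPM at ZT2, 25.6 ± 5.64 at ZT6, 27.6 ± 10.9 at ZT10, 42.3 ± 10.9 at ZT14, 46.2 ± 8.40 at ZT18 and 35.4 ± 8.10 at ZT22 (SD, n = 7, 7, 8, 8, 8 and 8). At ZT18 the lowest, median and highest libraries were 36.4, 46 and 56.7 CPM, against 17.1, 25.5 and 35.3 CPM at ZT6, so these times did not overlap. All other pairs of times did. The amplitude was 0.42 ± 0.08 with a peak at ZT 17.7 ± 0.68 h and an adjusted p of 0.00183. When the 6 times were fitted as separate levels the adjusted p was 0.391. Fitted within each letter, the amplitude of Nr4a1 lay between 0.40 and 0.48 in D1, with peaks from ZT 17.2 to 18.9, and between 0.36 and 0.48 in D2, with peaks from ZT 17.1 to 19.0.

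Nr4a3 in D1 neurons averaged 47.0 ± 6.49 CPM at ZT2, 25.0 ± 4.61 at ZT6, 27 ± 6.64 at ZT10, 51.5 ± 10.2 at ZT14, 47.5 ± 13.3 at ZT18 and 43.8 ± 13.6 at ZT22, over the same libraries. Its libraries were 37.4, 45.7 and 56.1 CPM at ZT2 (lowest, median, highest), 19.6, 24.0 and 32.3 CPM at ZT6, and 33.8, 51.3 and 64.5 CPM at ZT14. ZT2, ZT14 and ZT18 each lay wholly above ZT6, and the means were lowest at ZT6 and ZT10. Nr4a1 at ZT2 was by contrast nearer to its ZT10 level. The fit gave Nr4a3 an amplitude of 0.48 ± 0.09, a 1.95-fold swing, a peak at ZT 19.4 ± 0.62 h and an adjusted p of 0.007. The call was lost without letter A (adjusted p = 0.0935), C (0.118) or D (0.0737). Without the 3 libraries that stood apart the amplitude was 0.52, with an adjusted p of 0.00625.

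In D2 neurons Nr4a3 averaged 35.8 ± 15.8 CPM at ZT2, 25.1 ± 4.17 at ZT6, 26.1 ± 7.59 at ZT10, 43.7 ± 9.84 at ZT14, 45.7 ± 10.8 at ZT18 and 33.9 ± 5.21 at ZT22. The libraries of ZT18 (34.4, 44.0 and 69.1 CPM) lay above those of ZT6 (20.3, 24.4 and 31.2 CPM), and no other pair of times was apart. At ZT2 they spread from 23.2 to 66.0 CPM around a median of 29.3 CPM. The amplitude was 0.40 ± 0.08, with a peak at ZT 18.0 ± 0.74 h and an adjusted p of 0.0044. Without letter B, C or D the adjusted p was 0.0575, 0.127 and 0.14, and with the 6 times as separate levels it was 0.119. With the letter as a block it was 0.000166.

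Nr4a2 had no called rhythm. In D1 neurons it averaged 7.02 ± 4.57 CPM at ZT2, 8.19 ± 1.99 at ZT6, 9.58 ± 4.51 at ZT10, 10.8 ± 7.45 at ZT14, 11.7 ± 4.63 at ZT18 and 10.5 ± 6.24 at ZT22. In D2 neurons it averaged 7.95 ± 4.94 CPM at ZT2, 5.83 ± 2.95 at ZT6, 4.85 ± 2.28 at ZT10, 5.49 ± 2.12 at ZT14, 6.82 ± 3.96 at ZT18 and 6.49 ± 2.23 at ZT22. All times overlapped within both cell types. The fitted amplitude was 0.30 ± 0.14 in D1 (adjusted p = 0.48) and 0.23 ± 0.13 in D2 (adjusted p = 0.732). Without the 3 libraries that stood apart it was 0.33 in D1 (adjusted p = 0.431). Within letters the fitted peak fell anywhere from ZT 4.4 to 18.2 in D1. The spread left after the fit, as edgeR's biological coefficient of variation, was 44% in D1 and 40.2% in D2 for Nr4a2, against 22.5% and 24.8% for Nr4a1, 27.2% and 25.5% for Nr4a3, 21.6% and 19.1% for Dusp1 and 37.5% and 19.8% for Btg2.

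Dusp1, the MAP kinase phosphatase, averaged 11.5 ± 1.11 CPM at ZT2, 11.4 ± 1.57 at ZT6, 11.9 ± 3.85 at ZT10, 15.6 ± 2.39 at ZT14, 15.1 ± 3.68 at ZT18 and 14.5 ± 4.32 at ZT22 in D1 neurons. In D2 neurons it averaged 12.9 ± 2.47, 10.5 ± 1.68, 12.6 ± 3.57, 14.8 ± 2.65, 16.4 ± 2.84 and 15.2 ± 3.71 CPM at the same times. In both cell types the 3 dark times had the highest means and ZT6 the lowest, and all times overlapped. In D2 the libraries of ZT18 ran over 12.1, 16.1 and 21.4 CPM (lowest, median, highest) and those of ZT6 over 7.48, 11.2 and 12.2 CPM, with 7 of 8 libraries of ZT18 above all of ZT6. The amplitude in D2 was 0.29 ± 0.06, with a peak at ZT 18.3 ± 0.79 h and an adjusted p of 0.0102. That call was lost without letter B (adjusted p = 0.0998), C (0.0682) or D (0.136) and with separate times (0.442), while with the block the adjusted p was 0.000139. In D1 the amplitude was 0.27 ± 0.07 with a peak at ZT 17.4 ± 0.97 h and an adjusted p of 0.135. Without the 3 libraries that stood apart it was 0.29, with an adjusted p of 0.0138; those libraries held 5.23, 8.74 and 10.8 CPM of Dusp1 at ZT10 (B), ZT22 (B) and ZT18 (D), the lowest of their times.

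Btg2, which links to mRNA deadenylation, averaged 7.67 ± 1.24 CPM at ZT2, 7.27 ± 2.93 at ZT6, 12.2 ± 4.86 at ZT10, 13.3 ± 4.83 at ZT14, 13.8 ± 4.68 at ZT18 and 14.2 ± 6.15 at ZT22 in D1 neurons. In D2 neurons it averaged 10.2 ± 2.35, 9.02 ± 1.94, 9.09 ± 2.34, 10.4 ± 2.32, 11.7 ± 2.81 and 11.3 ± 1.34 CPM. Its D1 libraries were wide apart at ZT22 (2.71 to 19.5 CPM, median 16.9) and closer together at ZT2 (5.80 to 9.46 CPM, median 7.75). The lowest value, at ZT22, belonged to a library that stood apart. The amplitude in D1 was 0.53 ± 0.12, with a peak at ZT 16.7 ± 0.8 h and an adjusted p of 0.0703, against 0.61 and an adjusted p of 0.0032 without the 3 libraries. It also passed with depth as a covariate (adjusted p = 0.0369, 2.19% of all genes), in the fit of all libraries (0.00466, 1.22%), with DESeq2 (0.0171, 1.5%) and with limma voom (4.45e-05, 4.99%). In D2 it was 0.20 ± 0.06, with a peak at ZT 19.7 ± 1.23 h and an adjusted p of 0.177, or 0.0297 with the letter as a block.

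**Figure D2:**
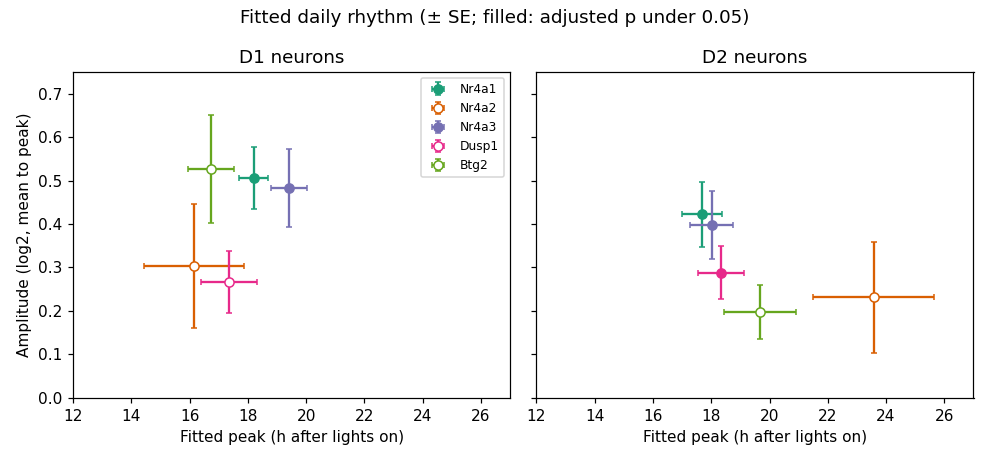
Fitted amplitude (log2, mean to peak) against fitted peak time (hours after lights on) for the 5 genes in D1 neurons (left) and D2 neurons (right); bars are SE and filled points have an adjusted p under 0.05. The called genes peak between ZT 17.7 and 19.4, and Btg2 has amplitudes of 0.53 in D1 and 0.20 in D2.

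Whether the rhythm itself differed between D1 and D2 was tested on the difference of the fitted cosine and sine terms, in a fit of all 91 libraries. It passed for 0 of the 5 genes, where 0.0139% of all genes passed; at an unadjusted p under 0.05 only Btg2 of the 5 passed. The size of that difference for Btg2 was 0.41 ± 0.14 on the log2 scale (adjusted p = 0.444), and limma voom with quality weights gave an adjusted p of 0.0177 in a fit that called 15.8% of all genes. For Nr4a2 it was 0.44 ± 0.19 (adjusted p = 0.621), for Nr4a3 0.18 ± 0.12, for Nr4a1 0.10 ± 0.11 and for Dusp1 0.08 ± 0.09. A p that misses the threshold does not show equal rhythms, and DESeq2 also called 0 of the 5.

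Between the cell types, Nr4a2 was the gene that passed the test, and it was higher in D1 neurons. Over all times Nr4a2 had 2.97, 7.77 and 26.8 CPM (lowest, median, highest) in D1 neurons, against 1.30, 5.27 and 16.2 CPM in D2 neurons. The ranges overlapped widely, and mean levels were 9.50 ± 5.09 CPM across the 45 D1 libraries and 6.21 ± 3.18 CPM across the 46 D2 libraries (SD). The fitted difference was 0.67 ± 0.14 on the log2 scale, 1.59-fold higher in D1, with an adjusted p of 6.16e-05. It was 0.37 to 0.64 within each of the 4 letters that both cell types share, and 0.72 without the 3 libraries that stood apart. This was 1 of 5 genes called, where 19.3% of all genes were called.

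Nr4a1 averaged 30 ± 10.4 CPM in D1 and 35 ± 11.5 CPM in D2, a fitted difference of -0.19 ± 0.07 that missed the threshold (adjusted p = 0.0616). Nr4a3 averaged 39.8 ± 13.9 CPM in D1 and 35.3 ± 12.1 CPM in D2, a difference of 0.21 ± 0.08 (adjusted p = 0.0639). With the letter as a block both passed (adjusted p of 0.0126 and 0.0361), which made 3 of 5 genes, where 38.1% of all genes passed. Nr4a1 also passed without letter C (adjusted p = 0.024, 14.6% of all genes) or the library with letter E (0.023, 19.8%). It missed without letter A (0.208), B (0.299) or D (0.263) and without the 3 libraries that stood apart (0.161). Nr4a3 passed without letter A (0.0322, 48.2% of all genes) or those 3 libraries (0.0391, 19.5%). It missed without letter B (0.0969), C (0.187), D (0.179) or E (0.0861). Within letters the difference for Nr4a1 was -0.34 in A, -0.55 in B, 0.06 in C and -0.20 in D, and that for Nr4a3 was 0.18 in A, -0.06 in B, 0.28 in C and 0.11 in D. Dusp1 averaged 13.2 ± 3.38 CPM in D1 and 13.8 ± 3.38 CPM in D2, with a difference of -0.04 ± 0.07. Btg2 averaged 11.3 ± 5.06 CPM in D1 and 10.3 ± 2.34 CPM in D2, with a difference of 0.12 ± 0.10; its libraries were more spread in D1 (2.71 to 20.8 CPM) than in D2 (5.78 to 15.7 CPM).

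**Figure D3:**
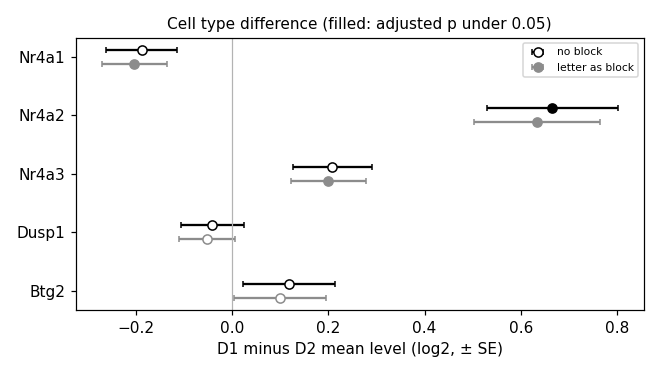
D1 minus D2 difference of the mean level of each gene (log2, ± SE) from the fit of all 91 libraries, without a block (black) and with the replicate letter as a block (grey); filled points have an adjusted p under 0.05. Nr4a2 stands at 0.67, Nr4a1 lies below 0 and Nr4a3 above 0.

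Since these 3 receptors share a family, their balance within a library was also compared, a comparison added after the values were seen. The log2 ratio of Nr4a2 to Nr4a1 averaged -1.63 ± 0.62 in D1 and -2.37 ± 0.65 in D2 (SD, n = 45 and 46), a difference of 0.74. The ratio of Nr4a3 to Nr4a1 averaged 0.38 ± 0.34 in D1 and 0.01 ± 0.26 in D2, a difference of 0.37. Both had a permutation p of 1e-05, the smallest that 100000 resamples can give (two-sided, adjusted over 3 ratios 1.5e-05). Nr4a2 to Nr4a3 averaged -2.01 ± 0.69 in D1 and -2.38 ± 0.50 in D2, a difference of 0.37 (permutation p = 0.0048, adjusted p = 0.0048). Within each of the 4 letters all 3 differences were above 0, the smallest being 0.13 for Nr4a2 to Nr4a3 in letter C. Without the 3 libraries that stood apart the differences were 0.75 (Nr4a2 to Nr4a1), 0.36 (Nr4a3 to Nr4a1) and 0.40 (Nr4a2 to Nr4a3). The ratios are not corrected for transcript length, so only their differences between cell types are read. The p-values measure the spread between these libraries, since the labels do not say whether libraries share animals. The permutations moved libraries freely across letter, sex and time. On the log2 scale the difference for Nr4a2 to Nr4a1 is the sum of the other 2, so the 3 are not separate results. How many other pairs of genes differ in their ratio was not counted. Of single genes, 19.3% differed between the cell types.

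Sex made no called difference to the mean level of any of the 5 genes in D1 (0 of 5, 0.0418% of all genes) or D2 (0 of 5, 0.216%). Limma voom also called 0 in each and DESeq2 0 in D2; DESeq2 gave these genes no adjusted p in D1. At an unadjusted p under 0.05 none passed in D1, and Nr4a2 and Nr4a3 passed in D2, both higher in males. Nr4a2 in D2 averaged 7.38 ± 3.63 CPM in males and 5.04 ± 2.17 CPM in females (SD, n = 23 each), a difference of 0.50 ± 0.18 (p = 0.00793, adjusted p = 0.88). With the letter as a block the difference was again 0.50, with an adjusted p of 0.0479, where 9.45% of all genes passed. At ZT22 the 4 D2 libraries from males held 8.65, 7.31, 7.81 and 9.52 CPM of Nr4a2 (letters A to D), against 4.47, 4.25, 3.43 and 6.50 CPM in the 4 from females, with no overlap. At ZT2, by contrast, 2 of the 4 libraries from males (4.74 and 5.09 CPM) lay within the range of those from females (4.56 to 5.74 CPM), and the other 2 held 14.0 and 16.2 CPM. ZT6 ran the other way, with 4.58 ± 1.46 CPM in males and 6.77 ± 3.64 CPM in females (SD, n = 3 and 4). In D1 neurons Nr4a2 at ZT22 was higher in females, also with no overlap. The 4 libraries from females held 8.54 to 22.6 CPM there, and the 4 from males 4.37 to 7.41 CPM. The sexes overlapped in D1 at each other time. Means there were higher in females at ZT6 and ZT10 and higher in males at ZT2, ZT14 and ZT18. Over all times the D1 sex difference of Nr4a2 was not called by edgeR (adjusted p = 0.916). How many of all genes separate the sexes at a single time was not counted. Nr4a3 in D2 averaged 38.6 ± 14.2 CPM in males and 31.9 ± 8.45 CPM in females, a difference of 0.26 ± 0.11 (adjusted p = 0.926, or 0.0874 with the block). In D1 no difference between the sexes exceeded 0.15 in size, with SE from 0.10 to 0.20.

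A sex difference of the rhythm passed for 0 of 5 genes in D1 and in D2, where 0% of all genes passed in either. At an unadjusted p under 0.05 none passed in D1 and Nr4a2 alone in D2 (0.66 ± 0.26, adjusted p = 1). Within a sex, Nr4a1 passed in D1 males, with an amplitude of 0.56 ± 0.10 and an adjusted p of 0.0241 (1 of 5 genes, 0.0418% of all genes). In D1 females its amplitude was 0.46 ± 0.10 (adjusted p = 0.274; 0 of 5 genes, 0.0279% of all genes). In D2 males its amplitude was 0.33 ± 0.11 (adjusted p = 0.425, or 0.0294 with the block), and in D2 females 0.51 ± 0.11 (adjusted p = 0.03). The share of all genes passing was 0.237% in D2 males and 0.495% in D2 females. The D1 male call was lost without letter A, C or D, and the D2 female call without any of the 4 letters, with adjusted p between 0.083 and 0.275. With the block, 2 of 5 genes passed in D2 males (9.11% of all genes) and 4 of 5 in D2 females (12.5%). Nr4a2 passed in neither sex by edgeR, with or without the block; limma voom called it in D2 males (adjusted p = 0.0334), along with 30.4% of all genes.

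How the genes varied together between libraries of the same group was described by correlations of log2(CPM + 1) after the means of each group and letter were removed. Of 10 pairs of genes, 5 passed in D1 and 8 in D2, at a permutation p adjusted over the 10 pairs under 0.05. The permutations took the residuals as independent, although means had been removed from them. All p-values of these correlations therefore tend to be too small, and the counts of pairs too high. The count in D1 was 2 without letter A, 8 without letter B and 6 without the 3 libraries that stood apart, and in D2 it was 5 without letter C. Without removing letter means it was 7 in D1 and 4 in D2. The median r of the 10 pairs was 0.37 in D1 and 0.42 in D2, where that of all pairs of genes was 0 in both. The lowest called r (0.438 in D1 and 0.308 in D2) was reached by 14.7% of all pairs of genes in D1 and 14.1% in D2. In D1 the highest value joined Nr4a1 and Btg2, with r = 0.768 and rho = 0.736 (n = 45, permutation p of 1e-05 for both, the smallest possible, adjusted p = 0.0001 for r), and r = 0.738 without the 2 libraries farthest out. Within letters it ran from 0.669 to 0.926. Nr4a1 and Dusp1 correlated with r = 0.592 and rho = 0.668 in D1 (adjusted p = 0.0002 and 5e-05) and with r = 0.714 and rho = 0.719 in D2 (n = 46, adjusted p = 3.3e-05 and 5e-05). Without the 2 farthest libraries these were 0.551 in D1 and 0.666 in D2. Without the 3 libraries that stood apart, r in D1 was 0.673 for Nr4a1 with Btg2 and 0.724 for Nr4a1 with Dusp1.

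In D1 the correlations of Nr4a2 with the other 4 genes lay between 0.204 and 0.239 and none passed. That with Dusp1 passed without removing letter means (r = 0.349, adjusted p = 0.027) and without letter B (r = 0.364, adjusted p = 0.037). In D2 it correlated with Nr4a3 at r = 0.705 and rho = 0.741 (adjusted p = 3.3e-05 and 5e-05, r = 0.655 without the 2 farthest libraries), and in D1 at r = 0.214 and rho = 0.155 (adjusted p = 0.18 and 0.41). Within letters the values in D2 were 0.628 to 0.804, and in D1 -0.164 to 0.535. The difference between D1 and D2 was not tested. Without letter B, where the D1 value was the lowest, r in D1 was 0.378 (adjusted p = 0.034).

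**Figure D4:**
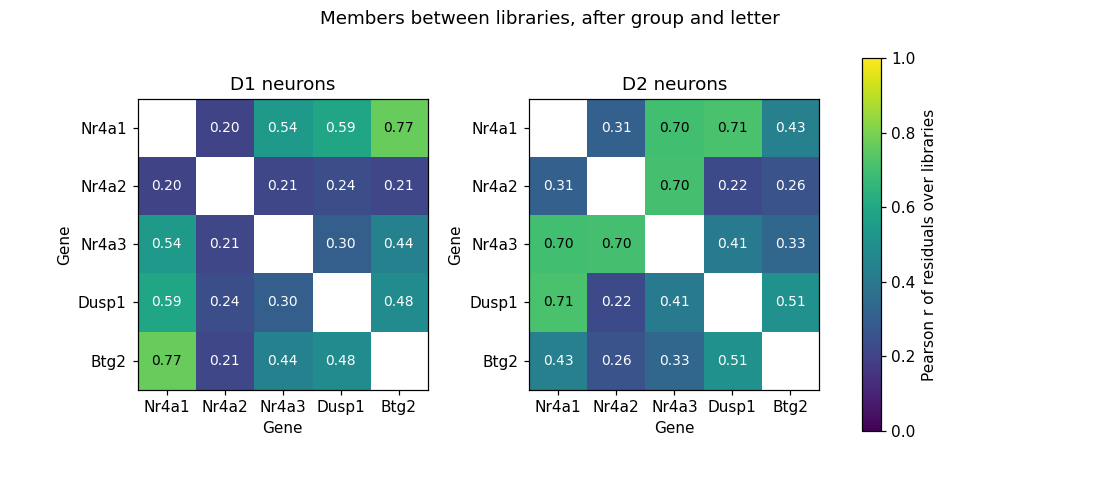
Pearson correlation between each pair of the 5 genes over the 45 D1 libraries (left) and the 46 D2 libraries (right), from residuals after group and letter means, with the value in each square and colour from 0 to 1. The row of Nr4a2 is low throughout in D1, while its square with Nr4a3 in D2 is among the highest.

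Over all 91 libraries, each of the other 14354 genes was ranked by its correlation with a member, as a description of likeness. Among them Dusp1 ranked 5th (r = 0.641), Nr4a3 6th (r = 0.623) and Btg2 8th (r = 0.619) for Nr4a1. Nr4a2 ranked only 1038th (r = 0.258), and its own 10 most alike genes all had an r of at least 0.768 with it. Without removing letter means Btg2 was 135th for Nr4a1, while Dusp1 and Nr4a3 were 3rd and 6th, and without the 3 libraries that stood apart Btg2 was 16th. ENSMUSG00000021250 was among the 10 most alike genes of 4 members (Nr4a1, Nr4a3, Dusp1 and Btg2; r from 0.582 to 0.644), and ENSMUSG00000038418 of 3 (Nr4a1 at 0.789, Nr4a3 at 0.568 and Dusp1 at 0.66). Neither identifier is named in the files. Both depend on the setting: ENSMUSG00000021250 was no longer among the leading pair of genes without removing letter means, and was shared by 3 members without the 3 libraries that stood apart, where ENSMUSG00000038418 left that pair. Libraries share depth and handling, which such correlations cannot separate from shared levels.

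Single libraries carried several of these genes at once. The D1 library from females at ZT22 with letter E, the only one with that letter, held the highest D1 values of Nr4a1 (62.3 CPM), Nr4a3 (70.1 CPM) and Dusp1 (21.6 CPM). It ranked 5th of 45 for Btg2 (18.8 CPM) and 4th for Nr4a2 (17.5 CPM). Without it, Nr4a1 in D1 kept an amplitude of 0.47 (adjusted p = 0.000159). The D2 library from males at ZT10 with letter A held 53.0 CPM of Nr4a1, 42.1 of Nr4a3, 20.3 of Dusp1 and 12.9 of Btg2, each the highest of the 8 D2 libraries of that time, but 5.14 CPM of Nr4a2, within the range of the others.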

How the data were processed

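Ribosome-bound mRNA was sequenced in 91 libraries. The deposited table holds raw counts per gene, which the authors left without normalisation. The tools were FastQC 0.11.7, HTSeq 0.10.0 and HISAT2, per the submitters' processing notes, in which the builds GRCm38 and GRCh38 stand without their role; a HISAT2 release was not given in the sources used here. A filter on log CPM stands in the name of the table, without its threshold.

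Tests were run in edgeR 4.0.16 under R 4.3.3 (TMM, quasi-likelihood F-test, Benjamini-Hochberg over all 14355 genes, threshold 0.05), with a mean, cosine and sine of 24 h for each cell type and sex. D1 and D2 libraries were fitted apart for rhythm and sex, and together for cell type. Sex differences are male minus female. The tests were tried on simulated counts. Correlations used a pseudocount of 1 and 100000 permutations.

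Deviations from group means correlated above 0.1 in 100% of 243 same-letter pairs in D2 (lowest 0.22) and in 70% of 223 pairs in D1 (lowest -0.63). The letters were therefore read as pairing libraries in D2 but not in D1. The main rhythm, sex and cell type fits nevertheless held no letter term, so the main D2 results leave this pairing out. In those tests the letter entered as a block only among the alternatives, where it changed calls in D2 and between the cell types. No library was a copy of another in 129 pairs of the same group (lowest mean chi-square per gene 4.24).

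Alternatives were a letter block, each letter left out, the 3 libraries left out, RLE factors, filterByExpr, depth as a covariate, other models of time and sex, DESeq2 1.42.0 and limma 3.58.1 voom. Genes and lists were chosen with earlier results of these data known. Further lists of early response genes and cell type markers could not be scored, since 0 of the 14355 identifiers could be named from the 49997 reference entries; the 5 genes take their names from the list that chose them.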

Additional observations from a re-analysis of the deposited data

Results flagged for a closer look

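In 6 of 60 sets of libraries of the same gene, cell type and time, a single library lay far above the rest by Dixon's test. For independent, normally distributed values chance alone flags about 1 set in 20. These sets hold CPM of both sexes, and the same libraries recur for each gene. The 6 flags therefore cannot be weighed against that rate. In the D2 library from males at ZT10 with letter A, Nr4a1 was at 53.0 CPM, against 17.7 to 28.8 CPM in the other 7, and Nr4a3 at 42.1 CPM, against 17.8 to 28.0 CPM. Nr4a3 was also at 69.1 CPM in the D2 library from males at ZT18 with letter A, against 34.4 to 50.5 CPM. Nr4a2 was at 17.3 CPM in the D1 library from males at ZT2 with letter B, against 3.84 to 9.53 CPM, and at 26.8 CPM in the D1 library from males at ZT14 with letter D, against 4.59 to 11.5 CPM. It was at 12.2 CPM in the D2 library from females at ZT6 with letter A, against 3.43 to 6.22 CPM. None of these libraries is among the 3 D1 libraries that stood apart.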

How the results depend on the processing

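Of 840 values of single genes under the alternatives, 750 kept direction and side of the threshold, 53 passed only under the alternative, 21 lost the call and 16 changed direction. Of 140 correlations of pairs of genes, 118 kept their side, 7 passed only under the alternative and 15 lost the call. Counts are of 5 genes, or of 10 pairs for correlations. Called rhythms in D1 (2) ranged from 1 to 2 with a letter left out and were 4 without the 3 libraries that stood apart, with or without the replicate block, and 4 with limma voom, and 3 with depth as a covariate, the fit of all libraries or DESeq2. Those in D2 (3) ranged from 1 to 3 with a letter left out and were 0 with time as a factor. In D1 males (1) the range was 0 to 1, with 2 without the 3 libraries and 4 with voom, and in D1 females (0) voom gave 4. In D2 males (0) the range was 0 to 1, with 2 under the block and 4 with voom. In D2 females (1) all letters left out gave 0, the block 4, depth as a covariate 2, voom 3 and DESeq2 2. The rhythm difference between cell types (0) was 1 with voom. The sex difference in D2 (0) was 1 with the block. The block changed no call of a rhythm or sex difference in D1, and none of the rhythm difference between cell types. The cell type difference (1) ranged from 1 to 2 with a letter left out (12.3% to 48.2% of all genes) and was 3 with the block (38.1%). It was 3 with the depth covariate (30.7%), 2 without the 3 libraries (19.5%), 3 without them plus the block (42.2%), and 2 with voom. Differences between letters in D1 (0) ranged from 0 to 2, and were 2 without the 3 libraries and 3 with voom; in D2 (2) they were 0 with the depth covariate. Correlated pairs ranged from 2 to 8 in D1 (5) and from 5 to 8 in D2 (8) with a letter left out, and were 7 in D1 and 4 in D2 without removing letter means. Of all genes, voom called 4.99% for rhythm in D1, 0.62% in D1 males, 17.6% in D1 females, 30.4% in D2 males, 1.46% in D2 females, 15.8% for the rhythm difference, 57.5% for the cell type difference and 77.2% for letters in D1. DESeq2 called 1.82% and the depth covariate 2.41% in D2 females. Without the 3 libraries, 0.0975% of all genes passed for rhythm in D1 males and 62.7% for letters in D1. Without them plus the block, 2.04% passed for rhythm in D1. The depth covariate called 73.7% for letters in D2.

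Changes of direction touched uncalled values near 0 only. The male minus female difference in D1 for Nr4a1 was 0.031 with the block, 0.046 without the 3 libraries, 0.113 without them plus the block, 0.076 with voom and -0.078 to 0.029 with a letter left out. For Nr4a2 it was -0.015 with voom and -0.079 to 0.138 with a letter left out. For Dusp1 it was 0.008 without the 3 libraries, 0.048 with the block added and 0.021 with voom. The D1 minus D2 difference for Dusp1 was 0.012 without the 3 libraries, 0.007 with the block added, 0.013 with voom and -0.08 to 0.02 with a letter left out; for Btg2 it was -0.014 to 0.234 with a letter left out. The causes were not tested. Nr4a2 had the lowest counts of the 5 genes, with 13 in its lowest library and medians of 115 in D1 and 77 in D2. Whether depth limits its values was not tested.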
